A study of Mus musculus with 2 samples.

Results

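Among 4937 ranked genes, the 5 described here had the highest ratios of transaortic constriction (TAC) to Sham transcript counts in macrophages of the mouse heart. Only genes with enough counts were ranked. The 5 genes are Gm17268, Uchl4, 4930479D17Rik, Gm31243 and Gm26749. They are 5 of the 55357 genes listed in both libraries. The genes were chosen by their ratio of summed counts in macrophages, TAC over Sham, so the macrophage ratios are given as a description, and the question for the data was whether the same genes were also higher in the other cell types of the TAC library. The Sham library came from hearts that the sample labels describe as sham-operated and the design text as uninjured. The TAC library came from hearts of male mice whose aortic arch was tied at the age of 8 weeks and which were followed for 6 weeks, a model of pressure overload. Both libraries were labelled C57BL/6, and each held a pooled single-cell suspension of 3 to 5 dissociated whole hearts. With 1 library per condition, a TAC effect cannot be told apart from a difference between libraries or between pools of mice, so no test between conditions was made and all intervals cover counting error only.

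Macrophages are resident phagocytes of the heart that clear debris and signal to their neighbours through chemokines. Gm17268 is a short annotated transcript around the gene of the chemokine Ccl2, which attracts monocytes carrying the receptor Ccr2. Uchl4 belongs to the ubiquitin C-terminal hydrolases (the UCH family), enzymes that cut ubiquitin from its precursors and adducts, and is a close relative of Uchl3. 4930479D17Rik is a long intergenic noncoding RNA. Gm31243 and Gm26749 are antisense noncoding RNAs that lie on the opposite strand of Bank1, an adaptor of B cell receptor signalling, and of Birc6, a large inhibitor of apoptosis protein.

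Positions were taken from GENCODE M21 (GRCm38), whose gene identifiers matched 94.1% of those in the files. The genome build behind the files was not given in the sources used here. Gm17268 (ENSMUSG00000092157) spanned chr11:82028224-82038562 on the minus strand, but its 2 exons held 66 bases in all, every one annotated as coding. The exons lay at chr11:82028224-82028254 and chr11:82038528-82038562, and the whole of Ccl2 (chr11:82035571-82037453, plus strand) lay in the intron between them. Uchl4 (ENSMUSG00000035337) was a gene of 1 exon at chr9:64235201-64236362 on the plus strand, inside Map2k1, the MEK1 kinase gene on the minus strand, and shared 0 bases with its exons. 4930479D17Rik (ENSMUSG00000085238) lay at chr6:146657218-146665403 on the plus strand, with 3 exons of 740 bases in all and no overlapping gene. Gm31243 (ENSMUSG00000104710) spanned chr3:135904344-136167184 on the plus strand, and 113822 bases of that span overlapped Bank1, with 0 bases shared between exons. Gm26749 (ENSMUSG00000097546) lay at chr17:74575381-74617119 on the minus strand, entirely within Birc6, and 611 of its 1933 exonic bases were also exonic in Birc6. Whether the counting used strand was not given in the sources used here. Without strand, reads from the exonic bases shared by Gm26749 and Birc6 cannot be told apart. The same holds for the other 3 overlapping pairs if intronic reads were counted, which was not given either.

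The complete annotated transcript of Gm17268 is shown because it is so short against the span of the gene (GENCODE M21 transcript, 5′ to 3′, minus strand).
Gm17268: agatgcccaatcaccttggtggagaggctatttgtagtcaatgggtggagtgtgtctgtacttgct

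The start of the coding sequence of Uchl4 is shown beside that of Uchl3, a close relative, with the bases that differ between them in capitals (GENCODE M21, the first 60 coding bases, 5′ to 3′).
Uchl4: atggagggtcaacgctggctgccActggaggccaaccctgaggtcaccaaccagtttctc
Uchl3: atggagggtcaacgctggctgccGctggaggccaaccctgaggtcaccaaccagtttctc
Over these bases 1 position differed. Over the aligned coding sequences, 672 of 699 columns were identical (96.1%), and the longest exact run shared by the 2 transcripts was 150 bases. In the last 300 bases of the Uchl4 transcript, the end from which 3-prime libraries read, the longest run shared with Uchl3 was 9 bases. Counts of Uchl4 are therefore uncertain to the extent that reads fell in the shared stretches.

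The start region of 4930479D17Rik is shown because of the 5 genes this one alone was at least 2-fold higher in TAC in no large cell type but macrophages with the clusters used here (RefSeq, GRCm38.p6, chr6:146656968-146657267, plus strand, 250 bases before to 50 after the start).
4930479D17Rik: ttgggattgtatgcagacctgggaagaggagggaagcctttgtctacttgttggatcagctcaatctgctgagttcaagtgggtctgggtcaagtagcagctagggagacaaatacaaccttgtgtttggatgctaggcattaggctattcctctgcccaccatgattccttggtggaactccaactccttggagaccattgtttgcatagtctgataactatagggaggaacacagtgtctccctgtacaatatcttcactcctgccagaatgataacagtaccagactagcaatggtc
RefSeq start regions were found for 3 of the 5 genes, 4 regions of 300 bases in all. The TATA box letters TATAAA, searched on both strands, were in 0 of these 4 regions and in 13.6% of 32851 regions of the same length. The letters GAGGAAGT, the core read by the myeloid factor PU.1, were likewise in 0 of the 4 and in 3.20% of all regions, again on both strands.

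Cell types were rebuilt from the counts. After filtering, 9475 Sham and 9452 TAC cells remained. The macrophage-like cells, 1 cluster in each library, numbered 1420 in Sham with a median of 1320.5 unique molecular identifiers (UMIs) per cell, and 1349 in TAC with a median of 1661. Leading genes of both clusters included F13a1, Mrc1, Adgre1 and Cd163, and all 8 macrophage markers were detected in both. The summed level of those markers was 5615 UMIs per 1000000 in Sham and 5970.0 in TAC, against 19.0 and 28.4 in cardiomyocytes and 46.6 and 48.3 in fibroblasts. Cardiomyocyte RNA was also found in macrophages, where the 7 cardiomyocyte markers summed to 3607 UMIs per 1000000 in Sham and 2161 in TAC. Mitochondrial genes gave a median of 0.459% of UMIs per Sham cell and 0.287% per TAC cell. The part of these library differences in the values below was not tested. The files shared 32 cell barcodes, and without those cells the counts of raised pairs and genes stayed within 1.5 times.

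Levels are given as UMIs of a gene per 1000000 UMIs of all genes in that cell type and library, and a ratio is the TAC level divided by the Sham level with its 95% interval. Levels were not compared between genes. In macrophages, Gm17268 had 15 UMIs in Sham and 144 in TAC, levels of 6.73 and 55.1, a ratio of 8.19 (4.80 to 15). Uchl4 had 14 and 103 UMIs there, a ratio of 6.28 (3.58 to 11.9). 4930479D17Rik had 23 and 142 UMIs, a ratio of 5.27 (3.37 to 8.58). All 3 of these genes were rare in Sham macrophages, so their ratios rest on few Sham molecules. Gm26749 had 35 and 189 UMIs and a ratio of 4.61 (3.20 to 6.81), and Gm31243 had 80 and 426 UMIs and a ratio of 4.54 (3.57 to 5.84). The 5 genes took the first 5 places among 4937 ranked genes with enough UMIs in macrophages. Gm31243 was the last inside that limit, and the next genes were Gm26936 with a ratio of 4.15 and Gm15261 with 3.95, both noncoding, so the limit did not fall at a gap.

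**Figure D1:**
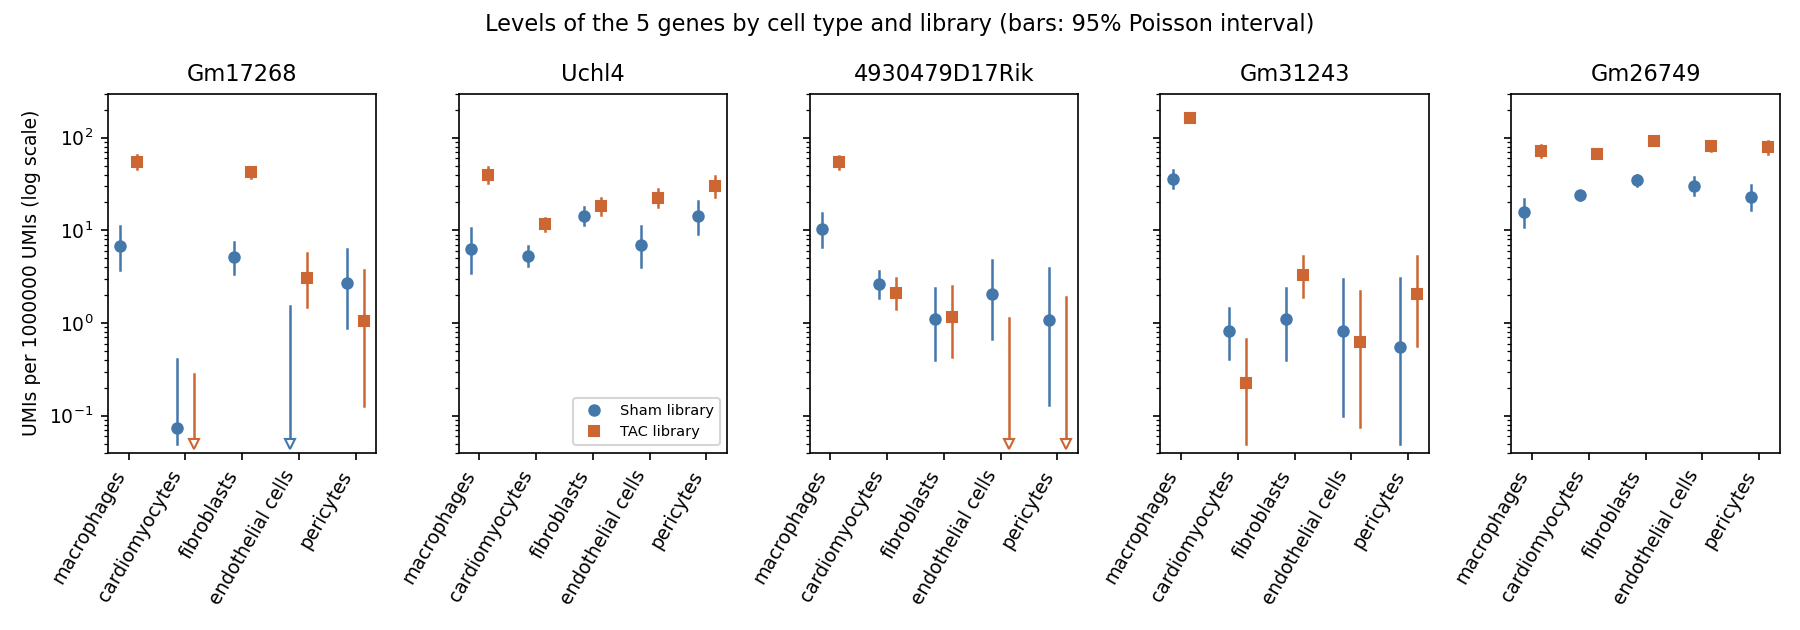
Level of each of the 5 genes (1 panel each) in UMIs per 1000000 UMIs on a log scale, by cell type, in the Sham library (blue circles) and the TAC library (orange squares), with 95% Poisson intervals; open triangles at the axis floor mark 0 UMIs. TAC lies above Sham in all 5 cell types for Gm26749 and Uchl4, and 4930479D17Rik is apart between libraries in macrophages, at 10.3 in Sham and 54.3 in TAC.

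Outside macrophages the 5 genes and the 4 other large cell types (cardiomyocytes, fibroblasts, endothelial cells and pericytes) made 20 pairs, of which 17 had more than 3 UMIs in at least 1 library. In 11 of these pairs the level was at least 2-fold higher in TAC, in 10 of them with an interval above 1, and in 3 it was at least 2-fold lower, in 1 of them with an interval below 1. By cell type, 2 of 4 genes in cardiomyocytes, 3 of 5 in fibroblasts, 3 of 4 in endothelial cells and 3 of 4 in pericytes were at least 2-fold higher. By the same criteria, 12.8% of all genes in cardiomyocytes, 10.8% in fibroblasts, 11.2% in endothelial cells and 9.19% in pericytes were at least 2-fold higher in TAC. At least 2-fold lower were 4.52%, 4.66%, 5.13% and 6.06% of all genes in the same 4 types. In macrophages, where the choice used the ratio, 9.81% of genes were higher and 6.93% lower. With a minimum of 100 UMIs in 1 library and 5 in the other, the shares higher were 2.5% in macrophages, 3.91% in cardiomyocytes, 2.77% in fibroblasts, 2.37% in endothelial cells and 1.65% in pericytes, and the shares lower 1.27%, 0.931%, 0.401%, 0.413% and 0.461%. The rise was thus not limited to macrophages for the group as a whole, but the 5 genes differed from each other in where else it was seen.

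Gm17268 was found mainly in 2 cell types. In fibroblasts it had 28 UMIs in Sham and 219 in TAC, levels of 5.14 and 42.3, and a ratio of 8.22 (5.53 to 12.7) that lay beside its macrophage ratio of 8.19. Endothelial cells held 0 UMIs in Sham and 10 in TAC, at least 2.51-fold higher against a limit of 3 counts for the empty library, and 5 of those 10 came from 1 cell. In pericytes the counts went the other way, 5 in Sham and 2 in TAC, with a ratio of 0.382 (0.0364 to 2.33) whose interval holds 1, and 1.49 (0.431 to 5.80) with doublets kept. Cardiomyocytes held 1 UMI in Sham and 0 in TAC. Fibroblasts carried 57.1% of the gene's Sham UMIs and 58.4% of its TAC UMIs, macrophages 30.6% and 38.4%, and pericytes 10.2% (3.40 to 22.2) and 0.533% (0.0647 to 1.91). Its ratio in macrophages divided by that in all other cells was 1.22 (0.621 to 2.5).

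Within fibroblasts, most Gm17268 UMIs lay in different clusters of the 2 libraries. The cluster led by Gfpt2 and Adgrd1, whose leading genes also included Pi16 in both libraries, held 0 Gm17268 UMIs in 171 Sham cells and 138 UMIs in 697 TAC cells, at least 12.6-fold higher against the limit of 3 counts. The remaining fibroblast cluster of each library, led by Lvrn and Pcdh9 in Sham and by Svep1 and Col6a6 in TAC, held 28 UMIs in Sham and 81 in TAC, levels of 5.68 and 24.7. Ccl2 followed the same split, with 0 Sham and 78 TAC UMIs in the cluster led by Gfpt2 and Adgrd1 and 37 and 33 in the others. The clusters of the libraries were drawn separately and held different numbers of cells.

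The molecules of Gm17268 came from few cells. In TAC macrophages its 144 UMIs lay in 70 cells, 27 of them with at least 2 UMIs and 1 with 17. In TAC fibroblasts its 219 UMIs lay in 42 cells, 28 of them with at least 2, and 1 cell held 26. In Sham, 12 macrophages held 15 UMIs and 14 fibroblasts held 28, 9 of them in 1 cell. The share of fibroblasts with a UMI was 0.609% in Sham and 1.98% in TAC, or 0.336% and 1.43% with cells thinned to 1000 UMIs. The intervals of the ratios count each UMI on its own and do not cover such gathering in single cells. Over all alternatives, among them leaving out the cell with the most UMIs, the macrophage ratio was between 7.55 and 8.36. The fibroblast ratio was between 5.34 and 10.7.

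Uchl4 was detected in every large cell type of both libraries. In endothelial cells it had 17 UMIs in Sham and 73 in TAC, a ratio of 3.23 (1.89 to 5.85). Cardiomyocytes held 72 and 152 UMIs, a ratio of 2.17 (1.63 to 2.91), and pericytes 26 and 58, a ratio of 2.13 (1.32 to 3.53). Only in fibroblasts did the interval include 1, with 78 and 95 UMIs and a ratio of 1.28 (0.939 to 1.75). The Sham level of Uchl4 in macrophages, 6.28, lay below those of fibroblasts (14.3) and, with overlapping intervals, pericytes (14.2), and in TAC the macrophage level of 39.4 was the highest of the 5 types. In TAC its interval of macrophages overlapped that of pericytes, at 30.2. The macrophage ratio divided by that in all other cells was 3.18 (1.76 to 6.19).

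4930479D17Rik differed from the rest. Its cardiomyocyte counts were 36 in Sham and 28 in TAC, a ratio of 0.799 (0.470 to 1.35), and its fibroblast counts 6 and 6. Endothelial cells held 5 UMIs in Sham and 0 in TAC, at most 0.452 of the Sham level against the limit of 3 counts, and pericytes held 2 and 0. In all cells but macrophages together the counts were 50 in Sham and 35 in TAC, a ratio of 0.691 (0.435 to 1.09), so a rise outside macrophages was not detectable at this depth. With each cell typed by markers and not by cluster, the fibroblast ratio was 3.92 (0.439 to 186) and the cardiomyocyte ratio 1.19 (0.793 to 1.80), both with intervals that hold 1. Macrophages gave 31.5% of the gene's UMIs in Sham and 80.2% in TAC. The macrophage ratio divided by the ratio in all other cells was 7.54 (3.94 to 14.8), the highest of the 5 genes.

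Gm31243 was mostly a macrophage and lymphocyte transcript in both libraries, with 70.8% of its Sham UMIs and 83.0% of its TAC UMIs in macrophages. In fibroblasts it had 6 UMIs in Sham and 17 in TAC, a ratio of 2.98 (1.12 to 9.23), and in pericytes 1 and 4, a ratio of 3.82 (0.378 to 188). Cardiomyocytes held 11 and 3, a ratio of 0.280 (0.0502 to 1.06) that became 1.69 (1.13 to 2.58) with each cell typed by markers, and endothelial cells held 2 in each library. Outside macrophages the largest holders were small lymphocyte clusters led by Gm2682, Skap1 and Pax5, genes of both T and B cells. The Sham cluster of 101 cells held 13 UMIs, a level of 111 (59.1 to 189.8), and the TAC cluster of 84 cells held 59 UMIs, a level of 577 (439 to 744). By the marker lists the Sham cluster was named B cells and the TAC cluster T cells. A difference in cell type therefore cannot be told apart from a rise in these levels. Outside macrophages as a whole the counts were 33 and 87, a ratio of 2.60 (1.72 to 4.01), and the macrophage ratio divided by it was 1.74 (1.06 to 2.84). Without the lymphocyte clusters, which the data led to leaving out, these counts were 20 and 28, a ratio of 1.38 (0.751 to 2.59), and the macrophage ratio divided by it was 3.28 (1.66 to 6.37).

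Gm26749 was higher in TAC in all 5 large cell types. Its ratios outside macrophages were 2.78 (2.45 to 3.17) in cardiomyocytes with 325 and 880 UMIs, and 2.65 (2.23 to 3.15) in fibroblasts with 189 and 476. Endothelial cells gave 74 and 265 UMIs and a ratio of 2.70 (2.08 to 3.54), and pericytes 42 and 152 UMIs and a ratio of 3.46 (2.44 to 4.99). It was the 1 gene of the 5 at least 2-fold higher in all 5 large cell types. The small types together held 10 Sham and 39 TAC UMIs. Lymphatic endothelial cells had 2 and 21 of them, and smooth muscle cells 1 and 6. The endothelial cluster led by Tmem108 and Nrg1 had 21 and 49 UMIs, a ratio of 1.34 (0.791 to 2.36) whose interval holds 1. In the fibroblast cluster led by Gfpt2 and Adgrd1 the ratio was 2.91 (1.76 to 5.10). Among the 4 large types other than macrophages the ratios did not differ beyond counting error, the ratio of each against the other 3 together lying between 0.927 and 1.26 with every interval holding 1. The macrophage ratio was 1.65 (1.13 to 2.46) times that of all other cells.

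**Figure D2:**
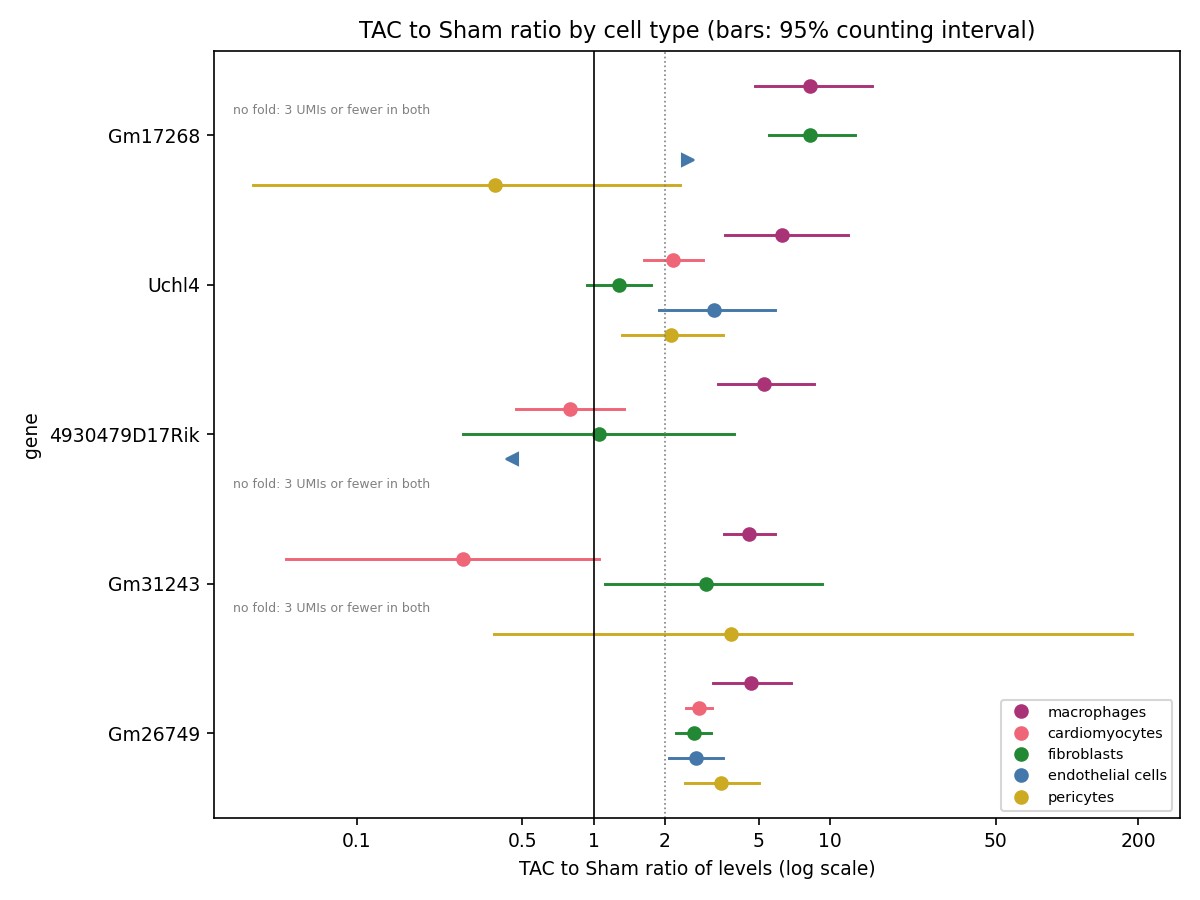
TAC to Sham ratio of each gene in each large cell type on a log scale, with 95% counting intervals; triangles are bounds where 1 library held 0 UMIs, the solid line marks 1 and the dotted line 2. Gm26749 lies above 2 in all 5 types, Gm17268 in macrophages, fibroblasts and endothelial cells, and 4930479D17Rik in macrophages.

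For 4 of the 5 genes the interval of the macrophage ratio against all other cells lay above 1, the exception being Gm17268. The macrophage side of that comparison chose the genes, so it is a description. The plot of both ratios over 4969 genes sets the 5 genes beside the 203 noncoding genes, of which 75.9% were higher in TAC in macrophages.

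**Figure D3:**
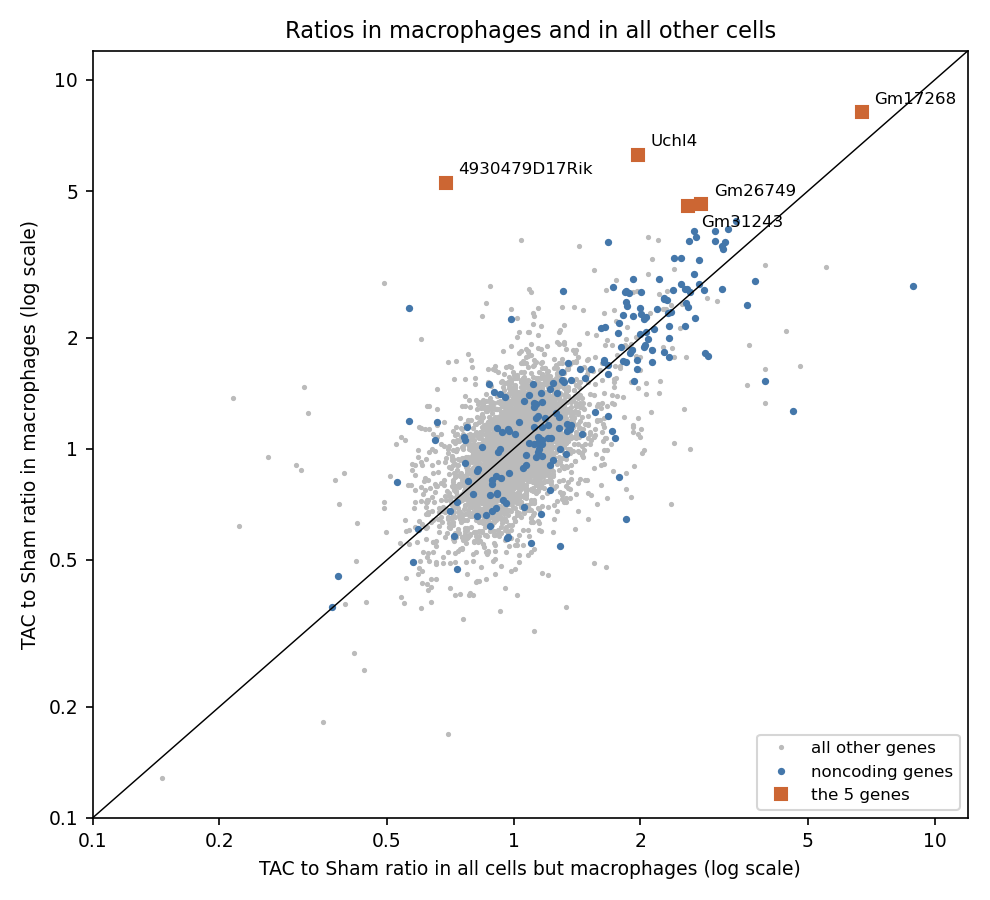
TAC to Sham ratio in macrophages against that in all other cells, both on log scales, for 4969 genes with at least 100 UMIs in 1 library and 5 in the other in macrophages; noncoding genes (203) are blue, the 5 genes orange, and the line marks equal ratios. Gm17268, at 8.19 and 6.71, is near the line, while 4930479D17Rik, at 5.27 and 0.691, is far above it.

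The share of macrophages with a UMI was compared after thinning each cell to 1000 UMIs, which left out 400 Sham and 222 TAC macrophages with fewer. For Gm31243 it was 4.22% (3.07 to 5.64) in Sham and 13.0% (11 to 15.1) in TAC, against 5.07% and 21.9% without thinning. Cardiomyocytes, with medians of 4510.5 and 4904 UMIs per cell, gave 0.161% and 0.0418% for the same gene, 0.398% and 0.125% without thinning, so the macrophage shares stood above those in cardiomyocytes. Gm26749 was found in 1.96% of Sham and 6.48% of TAC macrophages (2.25% and 11.8% unthinned), and 4930479D17Rik in 1.18% and 4.70% (1.41% and 7.49% unthinned). Shares of Uchl4 were 0.686% and 3.64% (0.775% and 6.52% unthinned), and those of Gm17268 0.686% and 3.37% (0.845% and 5.19% unthinned). As these macrophage counts chose the genes, the direction of the shares is a description. In cardiomyocytes thinned alike, Gm26749 was in 2.30% (1.75 to 2.97) of Sham and 5.52% (4.64 to 6.51) of TAC cells, 10.7% and 28.2% without thinning.

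Macrophages were then split by any UMI of the MHC class II genes H2-Aa, H2-Ab1 and H2-Eb1 or of Ccr2, genes of antigen presentation and of monocyte recruitment. The ratios of the subsets come from the counts that chose the genes and are read only against each other. Uchl4 had a ratio of 2.75 (1.22 to 6.99) in cells with such a UMI and 11 (4.84 to 31.0) in cells without. Gm17268 had 7.86 (1.91 to 69.4) and 8.42 (4.75 to 16.3), 4930479D17Rik 4.66 (2.57 to 9.14) and 5.74 (2.93 to 12.5). Gm31243 had 3.64 (2.44 to 5.60) and 5.07 (3.74 to 6.99), and Gm26749 3.59 (1.99 to 6.94) and 5.25 (3.29 to 8.79). The intervals of the subsets overlapped for all 5 genes. The TAC level of 4930479D17Rik was 95.5 in cells with an MHC class II or Ccr2 UMI and 35.9 in cells without, and the Sham levels were 20.5 and 6.26 on 13 and 10 UMIs. Split at 1500 UMIs per cell instead, the 5 ratios were 4.03 to 8.20 in the deeper cells and 4.16 to 14.8 in the shallower ones. The TAC level of 4930479D17Rik was 108 (83.3 to 137) in the shallower cells and 38.0 (29.9 to 47.5) in the deeper ones. Its Sham levels were 11.8 and 9.42. The part of depth in the split by MHC class II and Ccr2 was not tested.

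The genes next to Gm17268 are chemokine genes. Ccl2 itself had 23 UMIs in Sham macrophages and 77 in TAC, a ratio of 2.86 (1.77 to 4.77), and 37 and 111 in fibroblasts, a ratio of 3.15 (2.16 to 4.71). Ccl7, the next gene on that side and another Ccr2 ligand, had 20 and 72 UMIs in macrophages, a ratio of 3.07 (1.85 to 5.32), and 27 and 117 in fibroblasts, a ratio of 4.56 (2.98 to 7.20). On the other side the noncoding Gm31522 had a ratio of 2.27 (1.14 to 4.85) in macrophages and 0.935 (0.446 to 1.94) in fibroblasts. Ccl11, Ccl12 and Ccl8, further along the same cluster, were added after their values were seen. Ccl12 had 99 and 222 UMIs in macrophages, a ratio of 1.91 (1.5 to 2.45), Ccl8 had 1 and 18, a ratio of 15.4 (2.42 to 639.7), and Ccl11, an eosinophil chemokine, had 8 and 40 in fibroblasts, a ratio of 5.26 (2.43 to 13.0). In the other cell type these 3 had few UMIs, Ccl11 3 and 4 in macrophages, and Ccl12 and Ccl8 1 and 3 each in fibroblasts. Ccl2 and Ccl7 had ratios with intervals above 1 in both macrophages and fibroblasts. In fibroblasts, whose counts did not choose the genes, the ratio of Ccl2 was smaller than that of Gm17268. It was smaller in macrophages too, but there the ratio of Gm17268 led to its choice.

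Ccl2 was found more often in cells with Gm17268 than in cells without, though most cells with Gm17268 had no Ccl2 UMI. Of 70 TAC macrophages with a Gm17268 UMI, 23 (32.9%, 22.1 to 45.1) also held a Ccl2 UMI, against 28 of the 1279 without (2.19%). Of 42 TAC fibroblasts with Gm17268, 18 (42.9%, 27.7 to 59.0) held Ccl2, against 12 of 2082 without (0.576%). The Sham counts were 3 of 12 macrophages (25%) against 1.14% and 6 of 14 fibroblasts (42.9%) against 0.350%. Cells with Gm17268 were also deeper, with medians of 2038 against 1647 UMIs in TAC macrophages and 2642 against 2254 in TAC fibroblasts, and of 2542 against 1314 and 3272 against 2151 in Sham. The part of depth in these shares was not tested.

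Map2k1, which holds Uchl4, differed less between the libraries than Uchl4. It had 302 and 438 UMIs in macrophages, a ratio of 1.24 (1.07 to 1.44), and ratios of 1.19 in endothelial cells, 0.939 in cardiomyocytes, 0.884 in pericytes and 0.862 in fibroblasts. Gm48855, a noncoding gene 4406 bases before Uchl4 on the same strand, had 4 UMIs in Sham macrophages and 36 in TAC, a ratio of 7.68 (2.75 to 29.7). Its ratio was 6.28 (1.92 to 32.5) in endothelial cells, 2.21 (1.37 to 3.67) in cardiomyocytes, 1.91 (0.854 to 4.57) in pericytes and 1.56 (0.912 to 2.70) in fibroblasts, though many of these intervals overlap. The point values of the ratios of Map2k1, Gm48855 and Uchl4 had the same order over the 5 types at different sizes. For each gene the intervals of types next to each other in that order overlapped, so the order itself is not settled. Tipin, a replication fork protein gene after Uchl4, had a ratio of 0.935 (0.631 to 1.39) in macrophages.

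In the UCH family, 1 of the 4 genes with more than 3 UMIs in macrophages was at least 2-fold higher in TAC, and that gene was Uchl4, whose macrophage ratio led to its choice. By the same criteria 9.81% of all genes were higher. Uchl3 had 62 and 94 UMIs there, a ratio of 1.29 (0.929 to 1.81), and ratios of 1.03 to 1.42 in the other types. Uchl5, a deubiquitinase of the proteasome, had a macrophage ratio of 0.997 (0.736 to 1.35), and Bap1, a nuclear deubiquitinase, 0.770 (0.445 to 1.33). Uchl1, known from neurons, had 1 UMI in each library in macrophages, and in cardiomyocytes it had 29 in Sham and 7 in TAC, a ratio of 0.248 (0.0917 to 0.579). The median ratio of the family in macrophages was 1.15. Over all genes with at least 100 UMIs in 1 library and 5 in the other, the median log2 ratio in macrophages was 0.02.

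The gene before 4930479D17Rik, Med21, which encodes a subunit of the Mediator complex, had 41 and 109 UMIs in macrophages, a ratio of 2.27 (1.57 to 3.33). In the other 4 types its ratios were 0.839 to 1.23, with every interval holding 1. For both genes a rise beyond counting error was thus seen in macrophages alone among the large types. A smaller rise in the others could not be seen at these counts. Of 101 TAC macrophages with 4930479D17Rik, 26 (25.7%, 17.6 to 35.4) held a Med21 UMI, against 64 of 1248 without (5.13%). The median depths of these cells were 1558 and 1668 UMIs. In Sham the counts were 1 of 20 and 37 of 1400. Stk38l, a kinase gene on the other side, had a macrophage ratio of 1.4 (1.06 to 1.85).

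Bank1, opposite Gm31243, had 958 UMIs in Sham macrophages and 1879 in TAC, a ratio of 1.67 (1.55 to 1.81). Of 296 TAC macrophages with Gm31243, 253 (85.5%) held a Bank1 UMI, against 462 of 1053 without (43.9%), and in Sham 56 of 72 (77.8%) did, against 29.5%. The cells with Gm31243 were deeper here too, with medians of 2158 against 1547 UMIs in TAC. Of the pseudogenes inside or beside Gm31243, Gm43602, Gm18330 and Gm9408 had 0 UMIs, and Gm5281 had 10 and 9 in macrophages.

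Birc6, which holds Gm26749, had 928 and 1019 UMIs in macrophages, a ratio of 0.937 (0.856 to 1.02), and ratios of 0.890 to 0.978 in the other types. Its macrophage interval and those in fibroblasts, endothelial cells and pericytes held 1, and the cardiomyocyte interval was 0.846 to 0.936. The sense gene and its antisense RNA therefore differed in ratio in every large type, though the macrophage ratio of Gm26749 led to its choice. Ttc27, the gene after them, had a macrophage ratio of 1.4 (1.06 to 1.86), and Gm31645, the gene before, 4 and 7 UMIs.

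**Figure D4:**
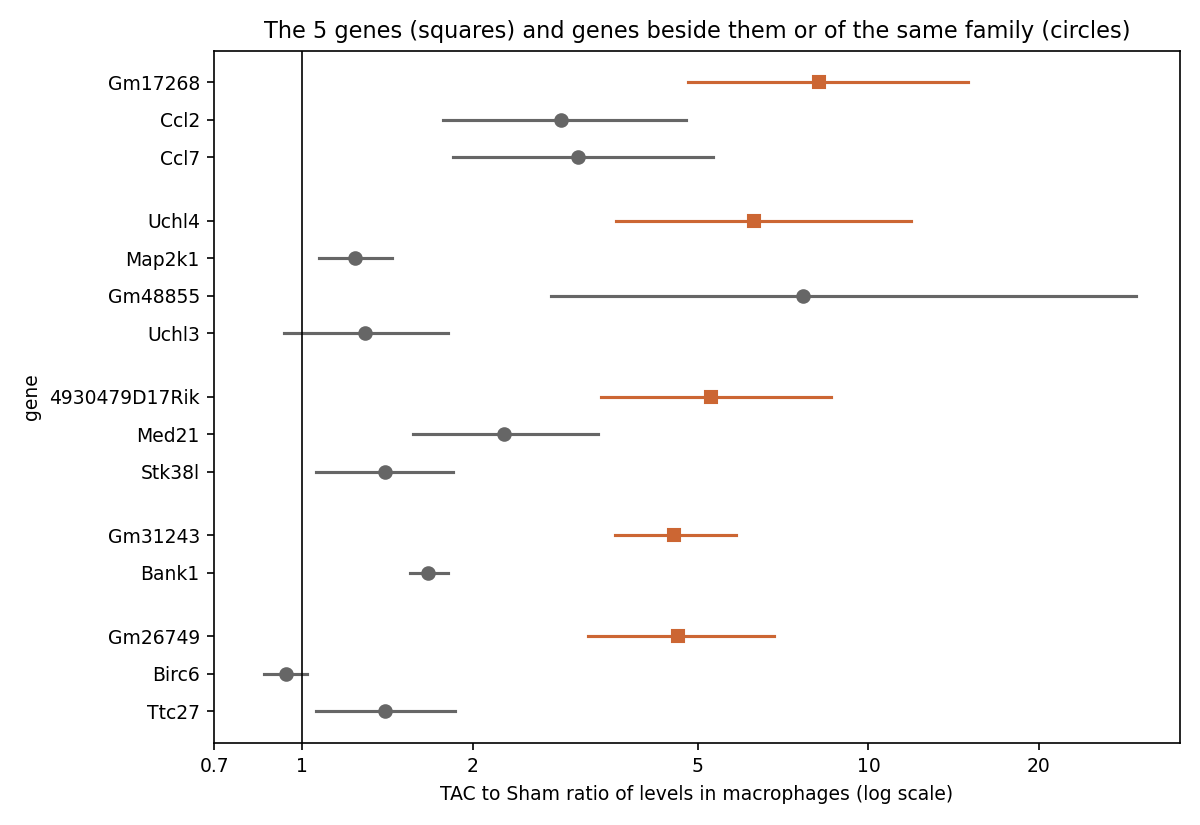
TAC to Sham ratio in macrophages on a log scale with 95% counting intervals for the 5 genes (orange squares) and, under each, genes beside it or of its family (grey circles). The ratios of Ccl2 (2.86), Ccl7 (3.07), Gm48855 (7.68) and Med21 (2.27) lie above 2, and those of Map2k1 (1.24), Uchl3 (1.29), Bank1 (1.67) and Birc6 (0.937) below.

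**Figure D5:**
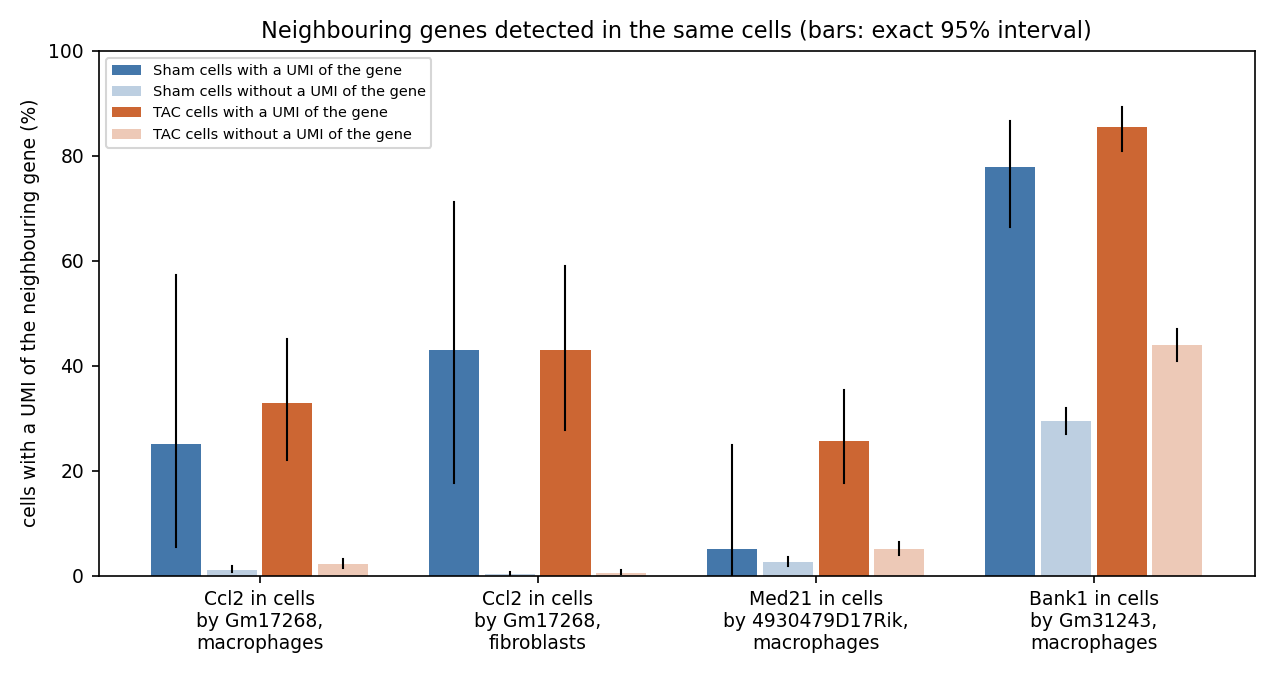
Share of cells with a UMI of a neighbouring gene (y axis, percent) among cells with (full colour) and without (pale) a UMI of the gene it neighbours, in Sham (blue) and TAC (orange), with exact 95% intervals. Ccl2 is found in 32.9% of TAC macrophages with Gm17268 and 2.19% of those without, and Bank1 in 85.5% and 43.9% with and without Gm31243.

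The genes most like each of the 5 were sought over 10 values, the levels on a log2 scale in the 5 large types of both libraries, among 15601 genes with at least 100 UMIs over both libraries. Those values share libraries and depth, and Pearson r is given as a description. For Gm17268 the closest were Ccl2 (r = 0.948), Dynlt1c (0.948) and the antisense Scpep1os (0.941). Uchl4 was closest to Gm48855 (0.976), Gm37229 (0.952) and Mettl16 (0.927), an RNA methyltransferase gene. For 4930479D17Rik they were Cfp (0.958), which encodes properdin of the alternative complement pathway, Slc37a2 (0.937) and Pgap6 (0.931), and their macrophage ratios were 1.52 (1.17 to 1.97), 1.26 (0.965 to 1.64) and 0.853 (0.618 to 1.18). All 3 intervals lay below that of 4930479D17Rik, whose macrophage ratio led to its choice, so this is a description. Gm31243 was closest to Gm10441 (0.979), E230016K23Rik (0.978) and Pdcd2l (0.977), and the first of these, an antisense RNA, had 72 and 234 UMIs in macrophages, a ratio of 2.77 (2.12 to 3.66). Gm26749 was closest to Gm30054 (0.987), 6720427I07Rik (0.980) and 6530409C15Rik (0.975), all noncoding, with macrophage ratios of 2.80 (1.51 to 5.52), 2.30 (1.77 to 3.02) and 3.92 (2.22 to 7.39). For Gm17268 the gene in its intron, Ccl2, thus shared the highest r, as rounded, with Dynlt1c. For Uchl4 the gene most alike in level was the next noncoding gene on its strand, not Map2k1, which holds it.

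Gm26749 was 1 of 13 genes at least 2-fold higher in TAC in all 5 large cell types, 0.467% of the 2786 genes with at least 100 UMIs in 1 library and 5 in the other in each type. The 10 with the highest smallest ratio were 9330162G02Rik (2.83 to 4.62 over the types), Gm15261 (2.75 to 4.42), Gm26749 itself (2.65 to 4.61), Gm48678 (2.63 to 2.95), Gm26532 (2.55 to 4.53), 5330438D12Rik (2.48 to 3.12), Gm17106 (2.47 to 2.91), Gm36975 (2.44 to 4.74), Gm20275 (2.38 to 3.91) and Gm47167 (2.21 to 3.27). All 10 were noncoding, as were 12 of the 13, the coding gene being Rbm4b, an RNA-binding protein gene, at 2.13 to 2.72. Only 2 genes were at least 2-fold lower in all 5 types (0.0718%), both coding, the transcription factor gene Zbtb16 (0.182 to 0.419) and the coronin gene Coro6 (0.275 to 0.432).

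Noncoding genes as a class were higher in the TAC library. In macrophages the median ratio of 203 noncoding genes was 1.42 and that of 4740 protein-coding genes 1.01. In cardiomyocytes these were 1.38 and 0.985, in fibroblasts 1.4 and 0.991, in endothelial cells 1.48 and 1.02, and in pericytes 1.31 and 0.994. Noncoding genes made up 4.09% of the genes tested in macrophages but 52.4% of the 124 at least 2-fold higher in TAC, and 6.35% of the 63 at least 2-fold lower. In pericytes they were 4.09% of genes tested and 75.4% of the 61 higher, the widest such gap of the 5 types. Of 5 known nuclear and ribosomal RNA-derived transcripts, Malat1 was above 1 in every type, at 1.03 to 1.24, and Neat1 below 1 in every type, at 0.497 to 0.850. Kcnq1ot1 had ratios of 0.904 to 1.4, Meg3 of 0.657 to 1.05 and AY036118 of 0.789 to 1.02. Gm31243, Gm26749 and 4930479D17Rik belong to this class. Whether the noncoding shift had a part in their ratios was not tested.

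Lists of genes that can differ between pools of mice were also read. The C57BL/6 substrain genes Nnt, Wdfy1 and Ide had ratios over all cells of 0.975 (0.881 to 1.08), 0.938 (0.869 to 1.01) and 1.03 (0.978 to 1.09), Fgfbp3 had 2.07 (1.41 to 3.09) with 40 and 85 UMIs, and Entpd4 had 0 UMIs. Of the 6 listed rows, 4 had more than 3 UMIs in macrophages, 0 of them at least 2-fold higher in TAC. In cardiomyocytes and in fibroblasts 1 of 4 was, Fgfbp3, at 2.28 (1.18 to 4.63) and 2.26 (1.14 to 4.76). In endothelial cells and pericytes 0 of 4 were. The Y-linked genes Ddx3y, Eif2s3y, Kdm5d and Uty were found in both libraries with ratios over all cells of 0.842 to 1.06, and Xist, the RNA of the inactive X chromosome, had 34 and 65 UMIs. Of the 6 sex-linked genes, 4 had more than 3 UMIs in macrophages, again with 0 at least 2-fold higher. In cardiomyocytes 1 of 6 was, Xist at 2.23 (1.35 to 3.78), and in fibroblasts 1 of 6, Tsix at 4.21 (0.416 to 207). In endothelial cells and pericytes 0 of 5 were. Ribosomal protein genes, 79 of 83 above 3 UMIs in macrophages, had a median ratio of 1.29 there, with 2 at least 2-fold higher and 1 lower. Of the 5 nuclear and ribosomal RNA-derived transcripts named above, 0 were at least 2-fold changed in macrophages, with a median ratio of 0.902. By the same criteria 9.81% of all genes in macrophages were at least 2-fold higher and 6.93% lower. The shares of all genes higher were 12.8% in cardiomyocytes and 10.8% in fibroblasts.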

How the data were processed

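Hearts were dissociated and libraries built with a 10x Chromium 3-prime kit (v2 in the study's methods, V3 in the labels). The deposited values are raw UMI counts, which the authors obtained with Cell Ranger, release 7.1.0 in the file headers and the submitters' processing notes and another release in the study's methods. Genome build, barcode filter, and use of introns or strand were not given in the sources used here. The files hold 9935 Sham barcodes with 28146691 UMIs and 9932 TAC barcodes with 29108986 UMIs.

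Cells with fewer than 200 detected genes (1 per library) and Scrublet doublets (459 and 479) were removed. Each library was clustered in scanpy 1.11.5 (2000 variable genes, 30 principal components, 15 neighbours, Leiden resolution 1), and clusters were named from marker lists where at least 3 markers passed. Counts were summed per library and cell type. Intervals (95%) were exact Poisson for levels, conditional binomial for ratios, conditional odds ratio for a ratio against another, and Clopper-Pearson for shares. They cover counting error only. A library at 0 UMIs was set to a limit of 3 counts, and no fold was given where both held 3 or fewer. The genes named were the 5, overlapping and nearest genes, the UCH family, the 3 most alike, genes at the edge of the limit of 5, genes changed in all 5 large types and listed genes. The 5 genes and all lists were chosen with earlier results of these data known. Cell types were rebuilt and may differ from the study's. Alternatives are given at the end.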

Additional observations from a re-analysis of the deposited data

Results flagged for a closer look

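Among the 4 large cell types other than macrophages, whose counts did not choose the genes, each type's TAC to Sham ratio was compared with that of the other 3 together, by the exact conditional interval of the ratio of ratios. Of 18 such comparisons, 6 had an interval without 1, and counting error with 1 library per condition is all that these intervals cover. For Gm17268 the fibroblast ratio was 4.2 (1.2 to 13.3) times that of the others, and the pericyte ratio 0.0499 (0.00455 to 0.321) times, the latter resting on 5 Sham and 2 TAC UMIs. With doublets kept, the pericyte ratio itself turned from 0.382 to 1.49 (0.431 to 5.80). For Uchl4 the fibroblast ratio was 0.536 (0.364 to 0.790) times that of the others, and the endothelial ratio 1.82 (1.02 to 3.39) times. For Gm31243 the cardiomyocyte ratio was 0.123 (0.0179 to 0.609) times that of the others, with 11 Sham and 3 TAC UMIs, and the fibroblast ratio 4.61 (1.17 to 20.3) times, with 6 and 17. With each cell typed by markers, the cardiomyocyte ratio itself turned from 0.280 to 1.69 (1.13 to 2.58). Gm26749 and 4930479D17Rik gave no such difference.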

How the results depend on the processing

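Alternatives to the barcode filter, doublet removal, clustering, cell typing, scaling, shared barcodes and the cell with most UMIs were run on each count and each ratio. No ratio whose interval excluded 1 changed direction. With a fold of 4 in place of 2, the 11 pairs outside macrophages fell to 1, the 1 gene raised in all 5 types to 0, and the 13 genes of any kind raised in all 5 types to 0. A fold of 1.5 gave 34 such genes, a count minimum of 20 and 5 UMIs gave 44, and keeping doublets gave 24. The other 45 recomputed counts stayed within 1.5 times. Without the cell with most UMIs, 9 pairs remained at least 2-fold higher. Of 238 recomputed ratios, 2 left the interval of their main value, both under marker typing of single cells without clusters, Gm17268 in fibroblasts at 5.34 (3.09 to 9.88) and Gm31243 in cardiomyocytes at 1.69 (1.13 to 2.58), in place of 8.22 and 0.280. Of ratios whose interval held 1, Gm17268 in pericytes went from 0.382 to 1.49 with doublets kept, and under the marker typing 4930479D17Rik went from 1.05 to 3.92 in fibroblasts and from 0.799 to 1.19 in cardiomyocytes. Leaving lymphocyte clusters out of all other cells, chosen after seeing the data, kept at 4 the number of genes with a higher macrophage ratio. Shares of cells with a UMI moved with the thinning depth in 81 of 150 cases. No paired analysis was possible because only a single library stands for each condition. Counts under about 10 UMIs, as for 4930479D17Rik outside macrophages and cardiomyocytes, limit what could be seen there.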
